A study of Mus musculus with 4 samples.

Results

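The endoplasmic reticulum (ER) chaperones and the unfolded protein response were described through 32 genes, taken by symbol from the 55487 genes of the deposited tables. All 32 symbols were found, each once. The list is a textbook one, but it was put together after results of the same Control and cKO libraries were known. The differences between the groups are therefore given as a description of these libraries and not as independent evidence.

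RNA-seq was carried out on freshly isolated satellite cells, the stem cells of mouse skeletal muscle, in 2 Control and 2 Rbfox2 cKO libraries. In the conditional knockout (cKO), floxed Rbfox2 was deleted after tamoxifen by a Cre recombinase (Pax7CreERT2) made where Pax7, a transcription factor typical of satellite cells, is expressed. A Rosa26 EYFP reporter labelled the deleted cells with a yellow fluorescent protein. The Rbfox2 protein binds RNA and steers alternative splicing. Only cells with active Pax7 lose the gene in this model. The genotype and treatment of the Control animals beyond that word are not stated, and neither is the animals' age. The labels do not say that the libraries came from separate animals, so the spread within a group may be technical. The library totals were between 68884091 and 101997422 estimated counts. Values per library are CPM (counts scaled to a common library size with edgeR's TMM factors), or TPM (transcript abundance scaled to a common sum) where genes are compared with each other, because TPM takes account of transcript length.

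For Rbfox2 itself the counts were 131.3 CPM in Control 1, 55.98 CPM in Control 2, 40.04 CPM in cKO 1 and 15.17 CPM in cKO 2. Both cKO libraries were lower than both Control libraries. The cKO 1 library carried more low-level signal, with a median TPM over all genes of 0.771 against 0.312 to 0.437 in the other 3. The 12 satellite cell markers summed to 18557 and 18044 TPM in Control and to 18000.5 and 18548.5 TPM in cKO, so the ranges of the groups overlapped. Most of that sum was Sdc4. None of the 12 was listed at 0 in any library and 0 of the 12 were called in edgeR, but some did not overlap between the groups. Pax7, after which the Cre is named, was higher in both cKO libraries, at 38.9 and 49.3 CPM, than in the Control libraries, at 26.5 and 22.7 CPM (log2 fold change 0.84, SE 0.33). On both scales Fgfr4 was also above both Control libraries in both cKO libraries, and Chrdl2 below both.

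Proteins bound for the membrane or the outside of the cell enter the ER through the Sec61 channel and fold there with chaperones and enzymes that form disulfide bonds. When unfolded proteins build up, the chaperone Hspa5 (BiP) leaves the stress sensors Ern1 (IRE1), Atf6 and Eif2ak3 (PERK), and the transcription factors Xbp1, Atf6 and Atf4 raise chaperones, folding enzymes and the machinery that returns misfolded proteins to the cytosol for degradation. In satellite cells, PERK signalling is known for its part in quiescence and survival. IRE1 acts by splicing the Xbp1 messenger RNA. The deposited values are totals per gene, so that splicing was not measured here.

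Most of these genes had lower counts in the cKO libraries, and 1 rose. In both cKO libraries 26 of the 32 lay below both Control libraries in CPM, and Edem1 alone lay above both. Over all 38143 genes tested, 13.3% lay below both Control libraries and 18.0% above both. The 26 included the 9 chaperones and co-chaperones, both lectin chaperones, 5 of 6 isomerases and all 3 translocation genes. Xbp1, Ern1, Herpud1, Edem2 and Pdia5 overlapped between the groups. The median log2 fold change was -0.59 over the 32 genes and 0.06 over all genes tested, and 29 of the 32 were negative against 45.0% of all genes. That share was higher for abundant genes: of all genes with a mean of at least 100 CPM, 72.4% were negative, and of the 19 listed ones 94.7%.

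With edgeR over all genes, 1 of the 32 passed the threshold of 0.05 on the adjusted p, against 0.551% of all genes tested. It was Edem1, which rose, and 0.364% of all genes rose. By this rule 0 of the 32 fell, against 0.186% of all genes. In data simulated gene by gene with the spread that edgeR fitted at each level, edgeR at this threshold called 4.48% of 67 genes changed 2-fold. The simulation held no shift shared by many genes of 1 library, as seen in cKO 1. The lowest log2 fold change among the 32 was -0.90, short of a 2-fold fall. In the simulated setting a count of 0 would therefore say little about falls of this size. At an unadjusted p under 0.05, 9 of the 32 were lower, against 1.51% of all genes. DESeq2 called 1 of the 32, also Edem1, against 0.331% of the genes to which it gave an adjusted p. It had 8 of the 32 lower at an unadjusted p under 0.05, against 0.861% of all genes. Limma on log2(TPM + 1) called Edem1 among the 31 genes it tested, against 0.308% of the 17210 genes in that fit, and had 20 lower at an unadjusted p under 0.05, against 4.59%. Derl3 was too low for the filter of that fit. All 32 passed the filter on low counts in edgeR.

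**Figure D1:**
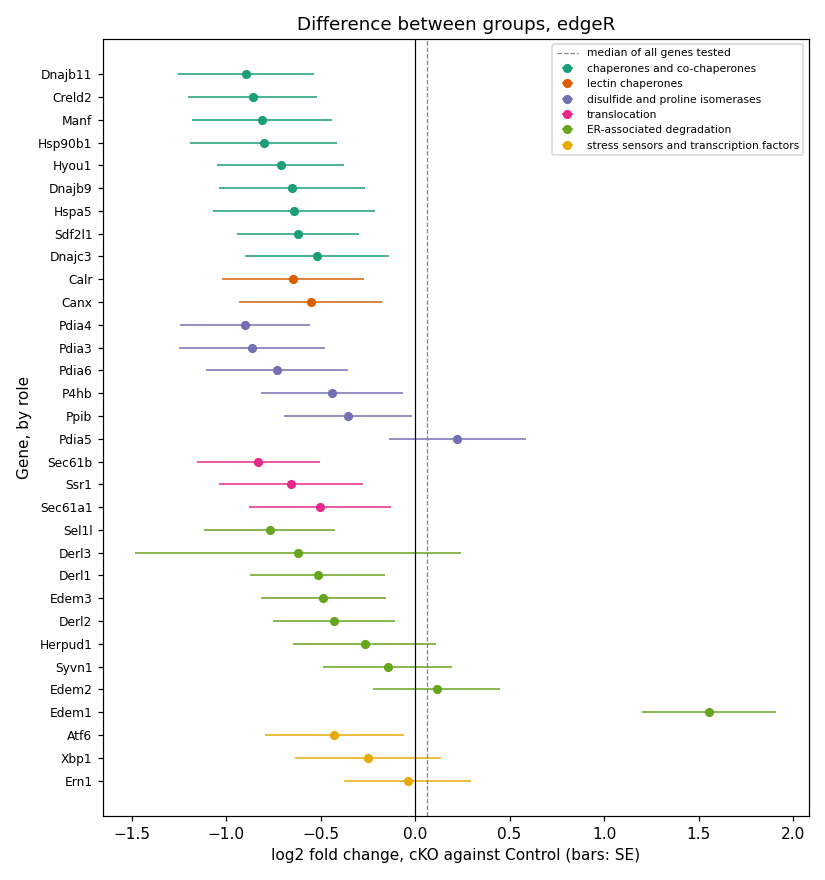
Log2 fold change of each gene in cKO against Control from edgeR (points) with its SE (bars), grouped by role. 29 of the 32 points lie below 0, Edem1 lies at 1.56, and the dashed line marks the median of all genes tested at 0.06.

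Chaperone promoters carry a sequence that the response factors bind, and the upstream stretches of 8 genes are shown: 6 chaperones or folding enzymes with the element, Herpud1 for its shorter form, and Edem1 as the gene that rose. The ER stress element (ERSE) is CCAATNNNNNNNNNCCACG, bound by NF-Y at CCAAT and by Atf6 or Xbp1 at CCACG. A shorter form, ERSE-II, is ATTGGNCCACG. Capitals mark the outer blocks of an exact match on either strand, and the reverse strand reads CGTGG and ATTGG. In Edem1, which had neither element in the window, capitals mark single copies of either block. The sequences are from RefSeq (GRCm38.p6), 5′ to 3′ on the strand of the gene, and end before its annotated start.
Hspa5: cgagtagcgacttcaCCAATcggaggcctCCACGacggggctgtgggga
Hsp90b1: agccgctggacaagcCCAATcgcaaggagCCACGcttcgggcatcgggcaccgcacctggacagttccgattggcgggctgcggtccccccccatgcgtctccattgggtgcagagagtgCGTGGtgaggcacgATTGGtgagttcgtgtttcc
Calr: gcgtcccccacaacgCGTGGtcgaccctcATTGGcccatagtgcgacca
Canx: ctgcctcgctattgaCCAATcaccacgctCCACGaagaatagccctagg
Pdia6: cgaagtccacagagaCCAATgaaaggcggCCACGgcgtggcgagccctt
Creld2: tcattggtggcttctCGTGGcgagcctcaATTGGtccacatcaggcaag
Herpud1: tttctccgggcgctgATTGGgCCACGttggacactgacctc
Edem1: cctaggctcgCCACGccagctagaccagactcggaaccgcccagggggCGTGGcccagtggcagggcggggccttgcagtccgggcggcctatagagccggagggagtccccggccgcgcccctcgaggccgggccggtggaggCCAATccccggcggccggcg
The stretches lie at chr2:34772010-34772058, plus strand (Hspa5), chr10:86705518-86705671, minus strand (Hsp90b1), chr8:84847060-84847108, minus strand (Calr), chr11:50325785-50325833, minus strand (Canx). The other 4 lie at chr12:17266476-17266524, plus strand (Pdia6), chr15:88819505-88819553, plus strand (Creld2), chr8:94386362-94386402, plus strand (Herpud1), chr6:108828391-108828554, plus strand (Edem1).

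The promoter window held 250 bases before and 50 bases after the annotated start, and 27 of the 32 genes had an entry. Atf6, Derl1, Hyou1, Manf and Sec61a1 had none. An exact ERSE was found in 9 of the 27 (33.3%), against 37 of 27025 genes with a promoter entry (0.137%). These were Hspa5, Hsp90b1, Calr, Canx, Pdia6, Dnajc3, Creld2, Syvn1 and Derl3. They made up 24.3% of all genes with the element. The list is a textbook one for this response, and the element is known from chaperone promoters. The difference between these shares is therefore not a test. The copy of Creld2 lies also in the window of its neighbour Alg12. In Hspa5 its first base lay 65 bases before the start, and Hsp90b1 held 2 copies, at 212 and 107 bases before the start.

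ERSE-II was found in Herpud1 and Dnajb11, 7.41% of the 27 against 0.0444% of all genes. The XBP1 motif TGACGTGG was found in 0 of the 27 and in 0.714% of all genes. The 2 blocks of ERSE, counted also where they form part of it, were common: CCAAT in 77.8% of the 27 and 41.1% of all genes, CCACG in 88.9% and 35.5%. A match says only that these letters are in the window. The 9 genes with ERSE had a median log2 fold change of -0.64, with a range from -0.86 to -0.15, and the 18 without it had a median of -0.46. Among 24 tested genes outside the list that carry ERSE, 17 were negative and the median was -0.16. Over all genes tested 45.0% were negative, with shares from 39.2% to 72.4% depending on the level of the genes. The level of the 24 genes was not taken into account. Differences between genes with and without ERSE were not tested.

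**Figure D2:**
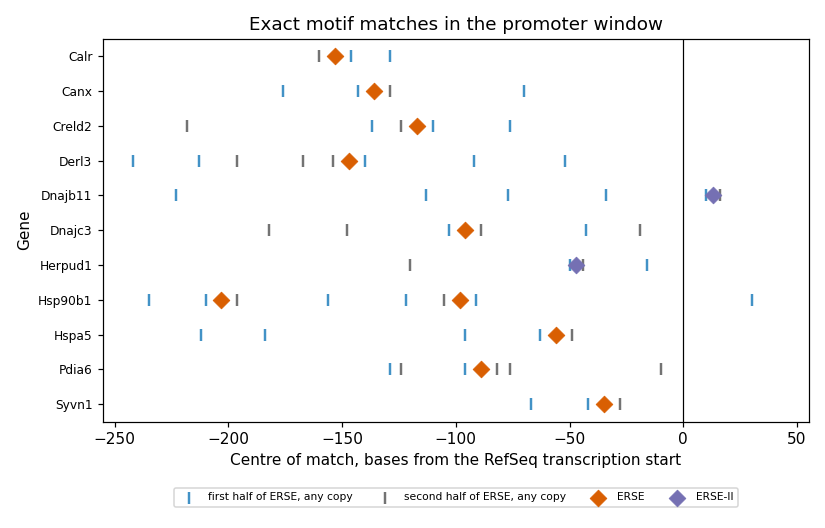
Centre of each exact match in the 11 genes with an ERSE (orange) or ERSE-II (purple), in bases from the RefSeq transcription start at 0. Ticks mark every copy of either block of ERSE. The ERSE matches all lie before the start, and the ERSE-II of Dnajb11 lies after it.

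Hspa5 was the most abundant of the 32 genes in every library. It had 8451 and 8046 TPM in Control, and 5087 and 6295 TPM in cKO, rank 12 of all genes in both Control libraries and rank 20 and 15 in the cKO libraries. The 32 genes together took 1.71% and 1.66% of all TPM in Control and 1.11% and 1.3% in cKO. Next in mean TPM came Xbp1, Herpud1, Hsp90b1 and Pdia3. In Control, Hsp90b1 and Pdia3 stood at like levels, 849.7 ± 41.2 and 842.3 ± 15.2 TPM (SD, n = 2), so the order of these genes is not settled. At the other end were Edem2, Pdia5 and Derl3, and Derl3 stood between 0.255 and 0.605 TPM. Derl3 is a paralog of Derl1 and Derl2 that is best known from secretory cells.

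**Figure D3:**
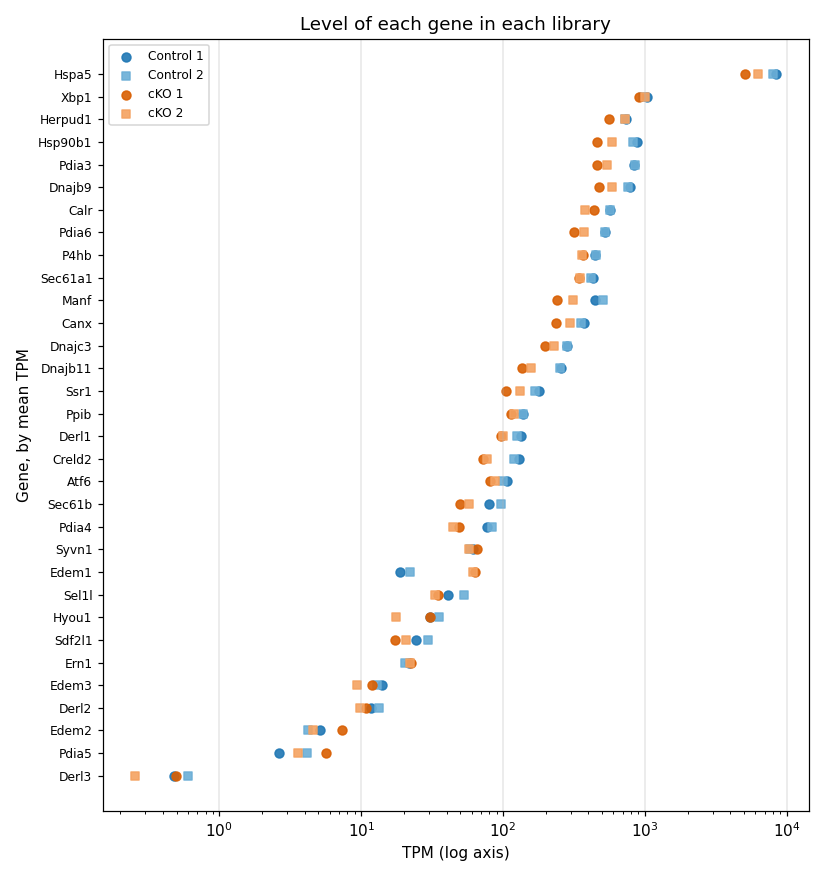
TPM of each of the 32 genes in each library on a log axis, ordered by mean TPM, with Control in blue and cKO in orange. The cKO points lie to the left of the Control points for most genes above 20 TPM, and to the right for Edem1.

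The chaperones were lower in both cKO libraries, and cKO 1 was the lowest library for 8 of the 9. Hspa5, the main Hsp70 of the ER, had 12967 CPM in Control 1, 12228 in Control 2, 5770 in cKO 1 and 10375 in cKO 2. The groups did not overlap, but the cKO libraries lay much farther apart than the Control libraries. Its log2 fold change was -0.64 (SE 0.43). Hsp90b1 (GRP94), the Hsp90 of the ER, stood at 1456 and 1344 CPM in Control and at 565.8 and 1039 CPM in cKO (log2 fold change -0.80, SE 0.39). Of the 50-mers of Hsp90b1, 9.76% occur in other genes, mostly in 1810014B01Rik. Hyou1, a large Hsp70 that exchanges the nucleotide of Hspa5, stood at 63.5 and 70.8 CPM and at 44.0 and 38.0 CPM (-0.71, SE 0.34). In TPM it stood at 30.40 and 35.28 in Control and at 30.37 and 17.71 in cKO, so cKO 1 was nearly equal to Control 1. Hyou1 was the chaperone with cKO 2 below cKO 1.

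The J-domain proteins, which deliver clients to Hspa5 and start its ATPase, were Dnajb9, Dnajb11 and Dnajc3. Dnajb11 stood at 290.9 and 284.9 CPM in Control and at 114.9 and 195.0 CPM in cKO (log2 fold change -0.89, SE 0.36). Dnajb9, which returns Ern1 to its inactive complex with Hspa5, stood at 1137 and 1104 CPM and at 508.2 and 917.7 CPM (-0.65, SE 0.38). Dnajc3 had the smallest difference of the 3, -0.52 (SE 0.38), from 869.6 and 851.1 CPM to 446.4 and 754.1 CPM. In each case the Control libraries lay close together, and cKO 1 was lower than cKO 2.

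Manf, a secreted factor that binds Hspa5, stood at 528.0 and 527.2 CPM in Control and at 225.5 and 375.8 CPM in cKO (-0.81, SE 0.37). Creld2, a stress-induced ER protein with EGF-like domains, stood at 104.6 and 96.4 CPM and at 43.6 and 67.1 CPM (-0.86, SE 0.34). Sdf2l1, a partner of Dnajb11, stood at 16.2 and 19.4 CPM and at 8.41 and 14.7 CPM (-0.62, SE 0.32). The mean transcript length behind the counts of Manf also varied, from 1759 to 2117 bases over the 4 libraries. The part of this in its counts was not tested.

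The lectin chaperones hold glycoproteins while they fold. Calr (calreticulin), the soluble one, stood at 724.8 and 722.7 CPM in Control and at 409.8 and 514.5 CPM in cKO (log2 fold change -0.65, SE 0.38). Canx (calnexin), the one anchored in the membrane, stood at 844.3 and 795.2 CPM and at 393.3 and 723.7 CPM (-0.55, SE 0.38). In TPM the cKO libraries changed order for Calr, at 436.6 in cKO 1 and 376.7 in cKO 2 against 568.0 and 571.3 in Control. Both cKO libraries remained below both Control libraries for both genes on that scale.

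The protein disulfide isomerases make and rearrange disulfide bonds. Pdia4 had a log2 fold change of -0.90 (SE 0.34), close to that of Dnajb11 and Pdia3, at 105.7 and 112.9 CPM in Control and 50.9 and 66.1 CPM in cKO. Pdia3 (ERp57), which works with calnexin and calreticulin, stood at 1370 and 1381 CPM in Control and at 558.2 and 952.6 CPM in cKO (-0.86, SE 0.39). Pdia6 stood at 645.8 and 640.3 CPM and at 287.7 and 486.5 CPM (-0.73, SE 0.37). P4hb, which is also a subunit of collagen prolyl hydroxylase, had a smaller difference, -0.44 (SE 0.38), at 759.6 and 760.1 CPM and 463.2 and 656.1 CPM. In TPM the cKO libraries were nearly equal for P4hb, at 367.6 and 357.6 against 445.5 and 452.2 in Control.

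Pdia5, a low-abundance member of this family, stood at 2.48 and 3.97 CPM in Control and at 3.73 and 3.80 CPM in cKO, so the groups overlapped (log2 fold change 0.22, SE 0.36, and -0.090 without Control 1). Its difference from the other isomerases was not tested. Ppib (cyclophilin B), a proline isomerase, stood at 77 and 75.2 CPM and at 47.2 and 71.6 CPM (-0.36, SE 0.34). The count of Ppib is uncertain, because 30.8% of its 50-mers occur in other genes, mostly in Snx22, whose exons overlap it on the opposite strand.

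The translocation genes were lower in both cKO libraries. Sec61b, a small subunit of the channel, stood at 26.9 and 32 CPM in Control and at 12.4 and 20.7 CPM in cKO (-0.83, SE 0.33). Ssr1, a subunit of the translocon-associated protein complex, stood at 994.9 and 910.3 CPM and at 427.9 and 778.3 CPM (-0.66, SE 0.38). Sec61a1, which forms the pore, stood at 699.7 and 692.0 CPM and at 399.7 and 582.8 CPM (-0.50, SE 0.38), and its log2 fold change in limma on TPM was -0.29. For Sec61b, 17.4% of the 50-mers occur in other genes, mostly in Gm10320 with a mean of 0.276 CPM, far under its own level.

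The genes of ER-associated degradation did not move as 1 group. Edem1, a mannosidase-like protein that passes misfolded glycoproteins on for degradation, had 58.4 CPM in Control 1, 70.8 in Control 2, 155.7 in cKO 1 and 224.2 in cKO 2. Both cKO libraries lay well above both Control libraries. The log2 fold change was 1.56 (SE 0.36), a fold of 2.94, and its adjusted p from edgeR over all genes was 0.0048. In TPM, Edem1 stood at 18.9 and 22.0 in Control and at 63.3 and 61.5 in cKO, and the cKO libraries were nearly equal. Limma on log2(TPM + 1) gave 1.57 (SE 0.14) with an adjusted p = 0.00712, and without cKO 1 that call was lost (1.55, adjusted p = 0.0885).

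Edem1 lies on GRCm38 chromosome 6 from 108828641 to 108859356 on the plus strand. None of its 6452 50-mers occurs in another annotated gene, and no other annotated exon overlaps its own. The mean transcript length behind its counts was 5180 and 5469 bases in Control and 5580 and 5680 bases in cKO, a log2 difference of 0.08. The call rested on the library set and on the scaling. The log2 fold change stayed between 1.2 and 1.81 with any 1 library left out, but edgeR's adjusted p was 1.00 without Control 1 and 1.00 without Control 2. It was 1.1e-09 without cKO 1 and 0.0035 without cKO 2. The call was also lost with DESeq2 size factors (1.5, adjusted p = 0.224 in edgeR) and with no filter on low counts (1.54, adjusted p = 0.529 in edgeR). It was kept in DESeq2 (1.52, adjusted p = 0.0389).

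The paralogs Edem2 and Edem3 did not share the rise of Edem1. Edem2 stood at 5.41 and 4.55 CPM in Control and at 5.63 and 5.14 CPM in cKO (0.11, SE 0.34), with overlapping groups. Edem3 stood at 51.1 and 46.9 CPM and at 33.0 and 36.9 CPM (-0.49, SE 0.33, and -0.32 in limma on TPM), with both cKO libraries lower. The difference between the paralogs' changes was not tested.

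Sel1l and Syvn1 form the core of the ubiquitin ligase complex in the ER membrane. Sel1l stood at 116.5 and 153.8 CPM in Control and at 67.2 and 91.3 CPM in cKO (-0.77, SE 0.35). Syvn1, the ligase itself, differed less, at 84.2 and 86.1 CPM and 72.7 and 81.2 CPM (-0.15, SE 0.34), and its groups overlapped in TPM. The mean transcript length of Sel1l was lower in cKO by 0.16 on the log2 scale, at 4740 and 4937 bases in Control and 4388 and 4283 bases in cKO. In limma on log2(TPM + 1), where scaling and pseudocount differ too, its log2 fold change was -0.45.

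The derlins are membrane proteins through which substrates leave the ER. Derl1 stood at 251.9 and 230.1 CPM in Control and at 134.8 and 202.3 CPM in cKO (-0.52, SE 0.36). Derl2 stood at 24.5 and 25.7 CPM and at 15.4 and 21.8 CPM (-0.43, SE 0.32), and in limma on TPM its log2 fold change was -0.26. Derl3, close to 0, stood at 0.176 and 0.279 CPM in Control and at 0.172 and 0.123 CPM in cKO (-0.62, SE 0.86). Its cKO 1 value was only just under Control 1, and its groups overlapped in TPM. Herpud1, a stress-induced partner of the ligase complex, stood at 786.4 and 766.7 CPM in Control and at 447.5 and 842.8 CPM in cKO (-0.27, SE 0.38). Its cKO libraries lay on either side of Control, and without cKO 1 its log2 fold change was 0.13.

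The sensors and transcription factors differed less than the chaperones. Xbp1 stood at 1233 and 1150 CPM in Control and at 770.1 and 1234 CPM in cKO (-0.25, SE 0.39), and only cKO 1 was lower. Ern1 stood at 62.4 and 53.5 CPM and at 49.6 and 63.1 CPM (-0.04, SE 0.34), with overlapping groups in CPM. In TPM its cKO libraries, at 22.6 and 22.1, lay slightly above its Control libraries, at 21.6 and 20.4 (0.09 in limma on TPM). Atf6 stood at 458.6 and 419.2 CPM and at 250.7 and 401.2 CPM (-0.43, SE 0.37), with both cKO libraries lower. Over these 3 genes the median log2 ratio to the Control mean was -0.63 in cKO 1 and 0.05 in cKO 2. Over the 9 chaperones it was -1.14 and -0.43.

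How low the cKO 1 library stood depended on the scale. Over the 32 genes the median log2 ratio of CPM to the Control mean was -0.83 in cKO 1 and -0.28 in cKO 2. On the TPM scale it was -0.40 in cKO 1 and -0.39 in cKO 2, and 24 of the 32 genes lay below both Control libraries in both cKO libraries. Hyou1 was among these by a narrow margin, at 30.37 TPM in cKO 1 against 30.40 TPM in Control 1. All 24 were tested in limma, and 15.7% of the genes in that fit lay below in the same way. In TPM 2 of the 32, Edem1 and Ern1, lay above both Control libraries in both cKO libraries, as did 8928 of the 38143 genes tested in edgeR. In CPM cKO 1 was below cKO 2 for 29 of the 32 genes, and in TPM for 19. With cKO 1 left out, the median edgeR log2 fold change was -0.27 with 26 genes negative, and 4 of the 32 were called, Edem1 higher and Hyou1, Pdia4 and Pdia3 lower. Of all genes in that fit 2.26% were called and 0.73% were called lower. With cKO 2 left out the median was -0.90 and 25 were called, 24 of them lower, against 5.39% of all genes called and 4.79% called lower. Either fit leaves 1 cKO library and assumes that it varies like the Control libraries.

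Differences between the libraries also varied with the level of a gene over the whole table, so the 32 genes were set beside all genes of like level. For 1764 genes with a mean of at least 100 CPM, the median log2 ratio to the Control mean was -0.50 in cKO 1 and 0.06 in cKO 2, and 29.7% lay below both Control libraries in both. For the 19 listed genes at that level it was -1.01 and -0.28, and 84.2% lay below. In TPM the same medians were -0.05 and -0.05 for all genes at that level and -0.52 and -0.39 for the listed ones. Between 10 and 100 CPM, 6076 genes had medians of -0.34 and 0.12 in CPM, and the 10 listed genes had -0.70 and -0.34. The median of the listed genes was below that of all genes at both levels, in both cKO libraries and on both scales. These levels were chosen after the values were seen.

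**Figure D4:**
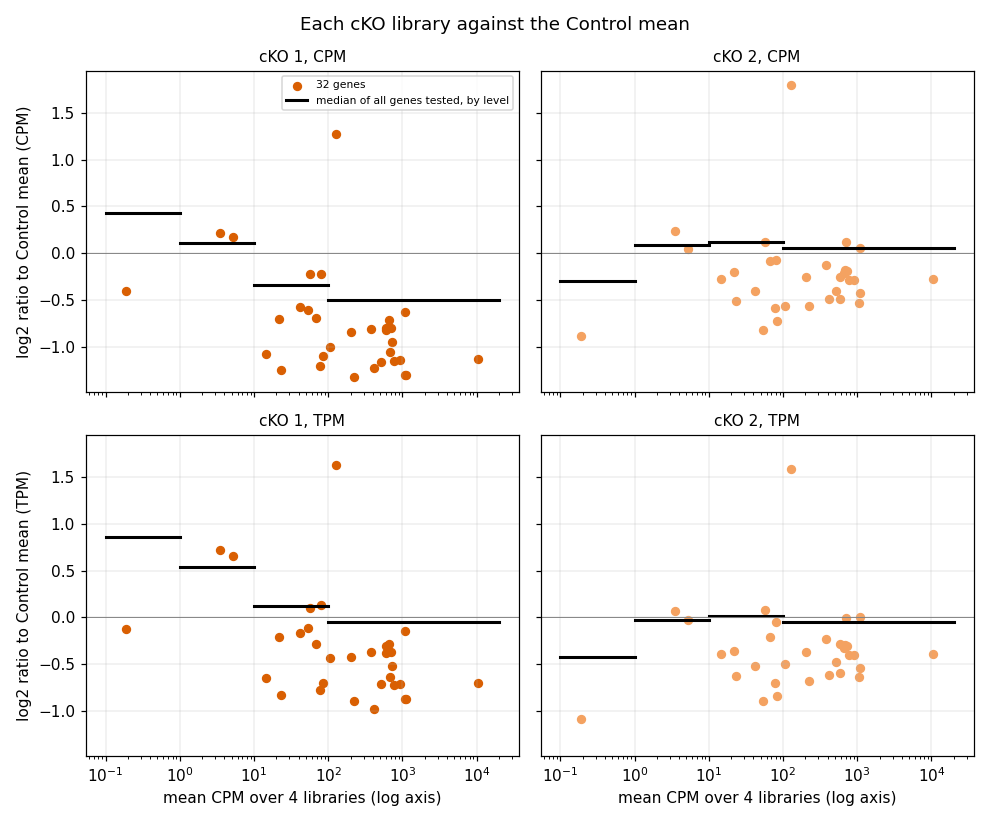
Log2 ratio of each cKO library to the Control mean for the 32 genes (points) against their mean CPM, in CPM (top) and TPM (bottom). Black lines give the median of all genes tested at the same level, and the points above 10 CPM lie mostly under those lines in all 4 panels. Edem1 lies above them in all 4 panels, and others, among them Ern1, Herpud1 and Xbp1, in some.

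Other genes of the same pathways were counted from lists that did not use the 32 genes. Of 110 such genes tested, edgeR called 0, with 9 at an unadjusted p under 0.05 (4.83% of all genes), 8 of them lower (1.51% of all genes). DESeq2 called 0, with 7 at an unadjusted p under 0.05 (2.22% of all genes), and limma on TPM called 0 of 107, with 30 (14.9% of all genes). The median log2 fold change of the 110 was -0.22, and 80 were negative. In limma on TPM 65 of the 107 were negative. On the TPM scale the median log2 ratio of the 110 to the Control mean was -0.10 in cKO 1 and -0.07 in cKO 2. There 43 of the 110 lay below both Control libraries in both cKO libraries, and 26 above both. Over the 38143 genes tested in edgeR these counts were 3537 and 8928. Beside all genes of like level, the share of negative genes in edgeR was 74.2% against 59.3% for the 62 genes between 10 and 100 CPM. It was 85.3% against 72.4% for the 34 genes of at least 100 CPM. For the 11 genes between 1 and 10 CPM it was 45.5% against 39.2%. Of the 3 genes below 1 CPM 0 were negative, against 41% of all genes at that level. Other translocation and glycosylation genes had 30 of 33 negative (median -0.34), and other PERK and ATF4 arm genes 8 of 10 (median -0.41). Other folding enzymes had 21 of 29 negative (median -0.22). Other degradation genes, at 13 of 22 (median -0.08), and other ATF6 and IRE1 signalling genes, at 8 of 16 (median -0.04), were spread to both sides. In TPM the median log2 ratios in cKO 1 and cKO 2 were -0.25 and -0.25 for the translocation list and -0.32 and -0.32 for the PERK list. They were 0.004 and -0.03 for folding enzymes, 0.18 and 0.02 for degradation, and 0.16 and -0.003 for ATF6 and IRE1 signalling. Over all genes tested 45.0% were negative, and the share was higher for abundant genes, as given above. The single lists were not split by level. How far their counts depart from genes of like level was not tested.

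Several of these genes had differences as large as those of the chaperones, all short of the threshold. Ero1lb, an oxidase that recharges the disulfide isomerases, had a log2 fold change of -1.08 (SE 0.32), but -0.30 (SE 0.21) in limma on TPM, and its Control libraries changed order between the scales. Chac1, an enzyme that breaks down glutathione downstream of Atf4, stood at 62.8 and 51.5 CPM in Control and at 17.8 and 39.9 CPM in cKO (-0.98, SE 0.33). Selenos, a selenoprotein of the degradation complex, had -0.97 (SE 0.35), Srp9, of the signal recognition particle, -0.95 (SE 0.35), and its partner Srp14 -0.89 (SE 0.34). Serpinh1, the collagen chaperone, had -0.92 (SE 0.35), and there Control 2, at 242.1 CPM, stood apart from 99.4 CPM in Control 1 (-0.61 in limma on TPM). Trib3, a pseudokinase and Atf4 target, had -0.66 (SE 0.32), and Wfs1 and Mbtps2 had -0.53 (SE 0.34) and -0.47 (SE 0.32), the latter -0.19 in limma on TPM. Rnf5, a ubiquitin ligase, was on the other side at 0.65 (SE 0.34).

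Cells other than satellite cells could carry ER genes into these libraries, and in bulk samples fewer cells of a type and less RNA per cell cannot be told apart. Plasma cells are rich in ER, and 8 plasma and B cell markers summed to 38.9 and 30.2 TPM in Control and to 58.5 and 19.2 TPM in cKO. The 8 fibroblast markers summed to 599.7 and 712.1 TPM in Control and to 694.0 and 585.8 TPM in cKO. For both lists the sums of the groups overlapped and 0 markers were called in edgeR, but some single markers did not overlap. On both scales Dcn, Lum, Col1a2, Cd79a and Cd79b lay above both Control libraries in both cKO libraries. Col3a1 and Sdc1 lay below both, and the other markers of these lists overlapped on at least 1 scale. Of 6 erythroid markers 5 rose in edgeR, against 0.364% of all genes. The sums of the 6 were 337.0 and 762.9 TPM in Control and 1799 and 1471 TPM in cKO. In limma on log2(TPM + 1) the adjusted p of these 5 lay between 0.162 and 0.346, short of the threshold. Macrophage and leukocyte markers summed to 28.7 and 31.3 TPM in Control and to 49.8 and 42.3 TPM in cKO, with 0 of 7 called. They did not all go the same way. On both scales Lyz2 and C1qa lay above both Control libraries in both cKO libraries. Itgam, with a mean of 0.63 CPM, lay below both (log2 fold change -1.96, SE 0.66), and the others overlapped on at least 1 scale. The endothelial sum was 116.3 to 126.3 TPM in Control and 129.4 to 155.5 TPM in cKO, and the glial sum 27.9 to 28.0 TPM and 35.1 to 39.0 TPM. Mature fibre, tenocyte and smooth muscle sums overlapped between the groups. The part of all these cells in the results, and that of the low-level signal in cKO 1, was not tested. None of these markers was listed at 0 in any library.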

How the data were processed

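RNA was measured in 2 Control and 2 Rbfox2 cKO libraries of freshly isolated satellite cells, made from 10 ng of RNA each by the SMART-Seq protocol and an MGI kit, per the labels' protocols. HISAT2 2.1.0, StringTie 1.3.6 and GRCm38 are named in the submitters' processing notes, with no role or order. Strand setting, annotation release and filters: not given in the sources used here. Overlapping genes on opposite strands may therefore share reads. Estimated counts, rounded to whole numbers, make up one table that the authors deposited. The other deposited table holds TPM, which sum to a fixed total and keep no depth.

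Counts were tested with edgeR 4.0.16 (TMM, filterByExpr, robust quasi-likelihood test, Benjamini-Hochberg over 38143 genes, threshold 0.05), and TPM with limma 3.58.1 (with trend and robust options) on log2(TPM + 1), where the mean TPM over libraries reached 1, a scale that understates changes of low genes. DESeq2 1.42.0 was an alternative. The SE of a log2 fold change in edgeR is its size divided by the square root of F. The common biological coefficient of variation was 0.373, so the spread between libraries limited the comparison more than counting error. Libraries of a group differed by more than sampling noise (chi-square over degrees of freedom 49.6 and 83.5) and were kept as separate samples.

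Loci, overlaps and shared 50-mers came from GENCODE M21 (GRCm38), in which 55394 of 55487 identifiers were found without their version. The members and lists were chosen with earlier results of these data known. All 32 members are reported. Pathway genes named are those called, or otherwise the 2 with the largest absolute log2 fold change in each list with a mean of at least 4 CPM. Alternatives were other scalings, filters, pseudocounts and tools, a replicate block, and each library left out in turn. The scripts were tested on simulated data.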

Additional observations from a re-analysis of the deposited data

How the results depend on the processing

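With 2 libraries a group, the number of calls depended on most choices, while 26 to 30 of the 32 genes (27 of 30 under the filter at 5 CPM) were negative in DESeq2 and in the edgeR fits other than the one with crossed numbers, where they were not counted. These were not always the same genes, and the count was added after seeing the data. The number of genes called was 210, 282 with library totals only, and 119 with DESeq2 size factors, 28 without the low-count filter, 14 where 2 libraries had to reach 5 CPM, and 93 in DESeq2. It was between 51 and 2267 with 1 library left out. Of the calls, 66.2% were higher in cKO, against 55.5% with DESeq2 size factors, 51.0% without Control 1 and 11.1% without cKO 2, where 2016 of 2267 were lower. Among the 32 genes the number called was 1, and 0 with DESeq2 size factors or no filter, 10 with library totals only (Edem1 higher and 9 lower, where 0.739% of all genes were called and 0.27% lower), and between 0 and 25 with 1 library left out, where Control 1, Control 2, cKO 1 and cKO 2 each changed it (0, 0, 4 and 25, where 0.121%, 0.135%, 2.26% and 5.39% of all genes were called). In limma it was 1, and 4 with a pseudocount of 0.1 (0.593% of all genes), 13 with no filter (0.742%), and between 0 and 11 with 1 library left out (9 without Control 1, 11 without Control 2 and 0 without cKO 1). The most negative of the 32 was Pdia4 in the reported fit, and Dnajb11, Sel1l, Creld2, Derl3, Manf or Hyou1 in others. In the fits with library totals only, the median of all genes was 0.25 in place of 0.06. Relative to that median, the median of the 32 genes was -0.69 in place of -0.65. It was -0.21 without cKO 1 and -1.05 without cKO 2.

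Signs changed for genes near 0. Ern1 stood at 0.10 with library totals only, 0.067 with the filter at 5 CPM, and between -0.29 and 0.14 with 1 library left out (0.06 without Control 1, 0.14 without cKO 1). Syvn1 stood at 0.011 with library totals only. With 1 library left out, Pdia5 stood between -0.090 (without Control 1) and 0.58, Edem2 between -0.027 (without Control 2) and 0.23, Xbp1 between -0.70 and 0.063 (without cKO 1), and Herpud1 between -0.86 and 0.13 (without cKO 1). The cause of these changes was not tested. With the replicate number as a block, 96 genes and 0 of the 32 were called in edgeR, and the log2 fold change of Edem1 was 1.54 (adjusted p = 0.183). In limma 1 of the 32 was called with the block. Same-numbered libraries deviated in opposite ways (correlation -0.18 over genes), and with the numbers crossed, an alternative added after seeing the data, 243 genes were called. The labels do not say what the number marks. A part of the library code changes with the number in both groups, and what that part marks is not stated either.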
